A study of Mus musculus with 34 samples.

Results

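The cytosolic ribosomal protein genes were followed here in J1 mouse embryonic stem cells (mESCs) grown without leukemia inhibitory factor (LIF), with or without Royalactin, the honey bee royal jelly protein. They were taken by symbol, as Rpl or Rps with a number and an optional suffix together with Rplp0, Rplp1, Rplp2 and Rpsa, which gave 84 of the 23366 gene rows. Of these, 51 belong to the large subunit and 33 to the small subunit, and 7 are paralogs that carry a suffix to the symbol of a parent gene (Rpl39l, Rpl10l, Rpl22l1, Rps27l, Rpl7l1, Rpl3l and Rps4y2). A filter on a mean normalized count of at least 10 left 82 for testing, 49 of the large and 33 of the small subunit.

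J1 is a mESC line that in serum needs LIF to stay undifferentiated. RNA-seq of 4 libraries was compared, 2 from serum/-LIF cells and 2 from serum/-LIF + Royalactin cells, the latter with 0.5 mg/ml purified protein. All 4 come from the same cell line, which the sample labels place at passage 40 while the study's text gives another passage, and no library with LIF was used here. The labels do not say whether libraries of a group came from separate cultures, so the p-values measure the spread between these libraries only.

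Each ribosome joins a large subunit, which forms the peptide bonds, and a small subunit, which reads the mRNA, and each holds 1 copy of most ribosomal proteins. Because the proteins are needed in equal amounts, their mRNAs are among the most abundant of growing cells and tend to move together. Many of these mRNAs start with a run of pyrimidines, the 5′ terminal oligopyrimidine (TOP) tract, through which mTOR signalling controls their translation. Some genes have a paralog with a narrower pattern of expression: Rpl39l and Rpl10l are best known from the testis.

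The coding sequences of Rpl39l and Rpl10l are shown beside those of their parents because these paralogs stood apart from the other members. Capitals mark every position where paralog and parent differ, which is what tells their coding reads apart. Rpl39l lies at chr16:10170319-10175004 on the plus strand of mm9 and Rpl39 at chrX:34622515-34625397 on the minus strand, and their coding sequences of 156 bases differ at 23 positions (85.3% identity).
Rpl39l: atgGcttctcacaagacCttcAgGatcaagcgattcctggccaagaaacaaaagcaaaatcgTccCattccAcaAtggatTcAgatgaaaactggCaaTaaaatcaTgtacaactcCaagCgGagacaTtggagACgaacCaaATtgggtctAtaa
Rpl39: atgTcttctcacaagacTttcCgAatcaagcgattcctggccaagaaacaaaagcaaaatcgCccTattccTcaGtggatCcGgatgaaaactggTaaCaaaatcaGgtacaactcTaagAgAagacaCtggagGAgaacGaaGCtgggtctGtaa
Rpl10l, a single exon at chr12:67384368-67385388 on the minus strand, and Rpl10, at chrX:71516151-71518474 on the plus strand, each have a coding sequence of 645 bases and differ at 98 positions (84.8% identity), 25 of them in the first 150 bases shown here.
Rpl10l: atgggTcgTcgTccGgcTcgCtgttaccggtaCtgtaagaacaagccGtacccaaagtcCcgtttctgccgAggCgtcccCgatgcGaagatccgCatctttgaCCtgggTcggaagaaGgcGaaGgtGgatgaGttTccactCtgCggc
Rpl10: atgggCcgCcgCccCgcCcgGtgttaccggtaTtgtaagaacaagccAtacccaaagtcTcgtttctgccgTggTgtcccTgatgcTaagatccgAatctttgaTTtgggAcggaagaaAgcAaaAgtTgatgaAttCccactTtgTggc

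Windows around the start sites of some members are shown as examples. RefSeq promoters (GRCm38.p6) were matched for 63 of the 84 members by symbol. In the windows of 30 bases centred on the annotated start, capitals mark runs of 5 or more pyrimidines. Rpl35 (chr2:39005117-39005146, minus strand), Rplp2 (chr7:141447636-141447665, plus strand), Rps6 (chr4:86857353-86857382, minus strand) and Rps10 (chr17:27635230-27635259, minus strand) are set beside Rpl39 (chrX:37085208-37085237, minus strand), Rpl39l (chr16:10170213-10170242, plus strand) and Rpl10l (chr12:66284387-66284416, minus strand).
Rpl35: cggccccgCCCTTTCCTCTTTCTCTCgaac
Rplp2: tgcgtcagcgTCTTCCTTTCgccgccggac
Rps6: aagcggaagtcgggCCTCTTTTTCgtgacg
Rps10: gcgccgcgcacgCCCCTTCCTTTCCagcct
Rpl39: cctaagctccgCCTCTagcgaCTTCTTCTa
Rpl39l: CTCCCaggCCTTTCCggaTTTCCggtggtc
Rpl10l: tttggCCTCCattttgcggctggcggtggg
The string CTTTC was found on the gene's strand within 25 bases of a start in 19 of the 63 members (30.2%), against 6.75% of all 32851 promoters in that reference and 6.79% of the tested genes matched to it. Rpl39l held it and Rpl10l did not. The string CCGGAAG, read on both strands over the 300 bases of each promoter, was found in 26 of 63 members (41.3%), 8.86% of all promoters and 19.8% of the matched tested genes. These matches describe the letters in the window.

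Between 14737796 and 17597818 reads per library were counted on genes, and the 45S ribosomal RNA precursor row, Rn45s, took 9.08% to 46.6% of them, so that 7878527 to 15999458 reads were left for all other genes. Rn45s differed more within the groups (46.6% and 21.6% in serum/-LIF, 38.4% and 9.08% with Royalactin) than between their means, and was left out of the shares given below. The labels were checked on cell markers. All 19 embryonic stem cell markers passed the filter. With Royalactin the log2 fold change was above 0 for 17 and below 0 for 2, Tdgf1 (-0.45) and Lin28a (-0.19). In limma 6 of them (Sox2, Zfp42, Esrrb, Tfcp2l1, Klf4 and Tdh) were higher at a Benjamini-Hochberg adjusted p under 0.05. Of all tested genes, 0.493% were called in either direction. Nes, a neural progenitor gene, was the only lineage marker called, and was lower (log2 fold change -1.95, SE 0.33, limma adjusted p = 0.017). The neural markers did not share this direction: of the 6 tested, 4 were higher and 2 lower, with a median log2 fold change of 0.42. The summed stem cell markers were 37947 and 41457 in serum/-LIF and 51945 and 59131 with Royalactin. The fibroblast or mesenchyme markers summed to 575 and 574 in serum/-LIF and 392 and 235 with Royalactin. Of the 6 tested, 5 were lower and 1 higher, and 0 were called. Postn, Pdgfrb, S100a4 and Prrx1 were at 0 in every library. In bulk samples fewer cells of a type and less RNA per cell cannot be told apart.

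Ribosomal protein mRNAs made up 8.56% and 12.5% of the normalized counts outside Rn45s in the libraries without Royalactin (replicates 1 and 2), and 7.18% and 9.82% in those with it. The 2 groups overlapped, since Royalactin replicate 2 lay above serum/-LIF replicate 1. The means were 10.5% ± 2.76 and 8.50% ± 1.87 (SD, n = 2), a difference of -2.02 percentage points that did not exceed the spread between replicates (exact permutation test, two-sided, p = 0.667, where 0.333 is the smallest p that 2 against 2 libraries allow). Without serum/-LIF replicate 2 the difference was -0.06 percentage points, and without Royalactin replicate 1 it was -0.70. It was -3.97 without serum/-LIF replicate 1 and -3.33 without Royalactin replicate 2. With Rn45s kept among the counts it was -0.50. Both subunits followed the same order of libraries. The large subunit took 5.11% and 7.49% in serum/-LIF and 4.32% and 5.81% with Royalactin, and the small subunit 3.45% and 4.98% against 2.86% and 4.01%. The ratio of the large-subunit to the small-subunit sum was 1.48 and 1.50 without Royalactin and 1.51 and 1.45 with it, a mean difference of -0.01 (exact permutation test, p = 1).

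**Figure D1:**
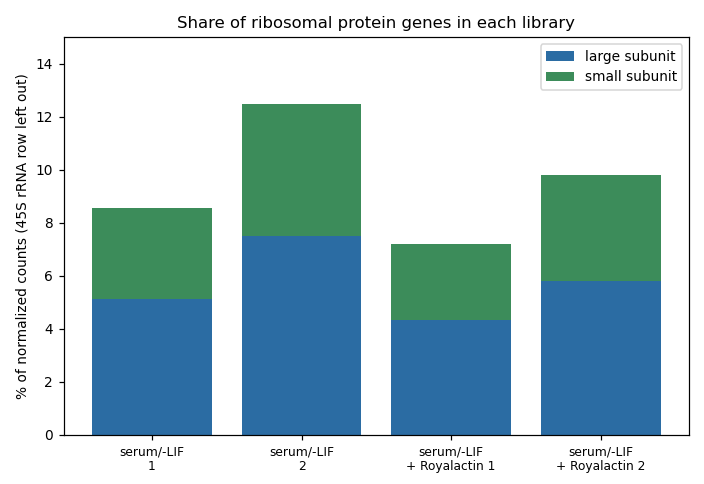
Percent of the normalized counts outside the Rn45s row that lies on large-subunit (blue) and small-subunit (green) genes, 1 bar per library. Serum/-LIF replicate 2 is highest with 12.5% and Royalactin replicate 1 lowest with 7.18%, so the groups overlap.

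No ribosomal protein gene was called at an adjusted p under 0.05 by limma (0 of 82 tested members, where 0.493% of the 12993 tested genes were called), and 2 members had an unadjusted p under 0.05 against 9.34% of all tested genes. These 2 were Rpl39l and Rpl10l, both with higher values in the Royalactin libraries. The direction of the means was nonetheless nearly uniform. In 79 of 82 members the fitted log2 fold change was below 0, against 50.6% of all tested genes, and the 3 members above 0 were all paralogs (Rpl39l, Rpl10l and Rps4y2).

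The size of this shift was close in the 2 subunits. The median log2 fold change was -0.35 over the 49 tested large-subunit genes and -0.37 over the 33 small-subunit genes, against -0.01 over all tested genes. Among the 76 tested members that are not paralogs, every log2 fold change lay between -0.76 and -0.02, with quartiles at -0.44 and -0.26. The SE of a single member was 0.38 at the median. Leaving out a library moved both medians. Without serum/-LIF replicate 2 the medians were 0.03 and -0.02 for the large and the small subunit, and without Royalactin replicate 1 they were -0.08 and -0.06. They were -0.79 and -0.66 without serum/-LIF replicate 1, and -0.63 and -0.64 without Royalactin replicate 2.

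**Figure D2:**
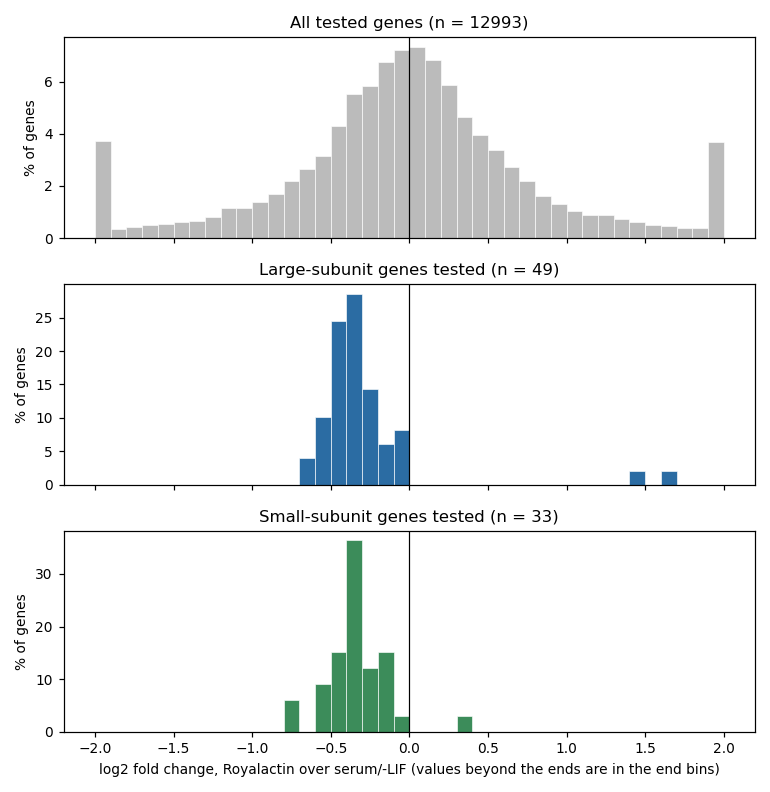
Distribution of the log2 fold change (horizontal axis, Royalactin over serum/-LIF) as percent of genes (vertical axis) for all 12993 tested genes, the 49 large-subunit genes and the 33 small-subunit genes. All genes centre near 0 with a median of -0.01, whereas both subunits centre at -0.35 and -0.37, with Rpl39l at 1.62 and Rpl10l at 1.42 set apart on the right.

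The members were high or low together by library more than by group. The typical (median) tested member had a normalized count of 9860 in serum/-LIF replicate 1, 18166 in replicate 2, 8236 in Royalactin replicate 1 and 11619 in Royalactin replicate 2. Serum/-LIF replicate 2 was the highest of the 4 libraries for 70 of 82 members and Royalactin replicate 1 the lowest for 74. Replicate 2 exceeded replicate 1 for 79 of 82 members in serum/-LIF, by 1.69-fold at the median, and for 82 of 82 with Royalactin, by 1.48-fold. Over all tested genes the same median differences between replicates were -0.03 and 0.00 on the log2 scale, whereas those of the members were 0.76 and 0.56. The values of the 2 groups did not overlap for 4 of 82 members (2 above, Rpl39l and Rpl10l, and 2 below), while they did not overlap for 38.6% of all tested genes.

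**Figure D3:**
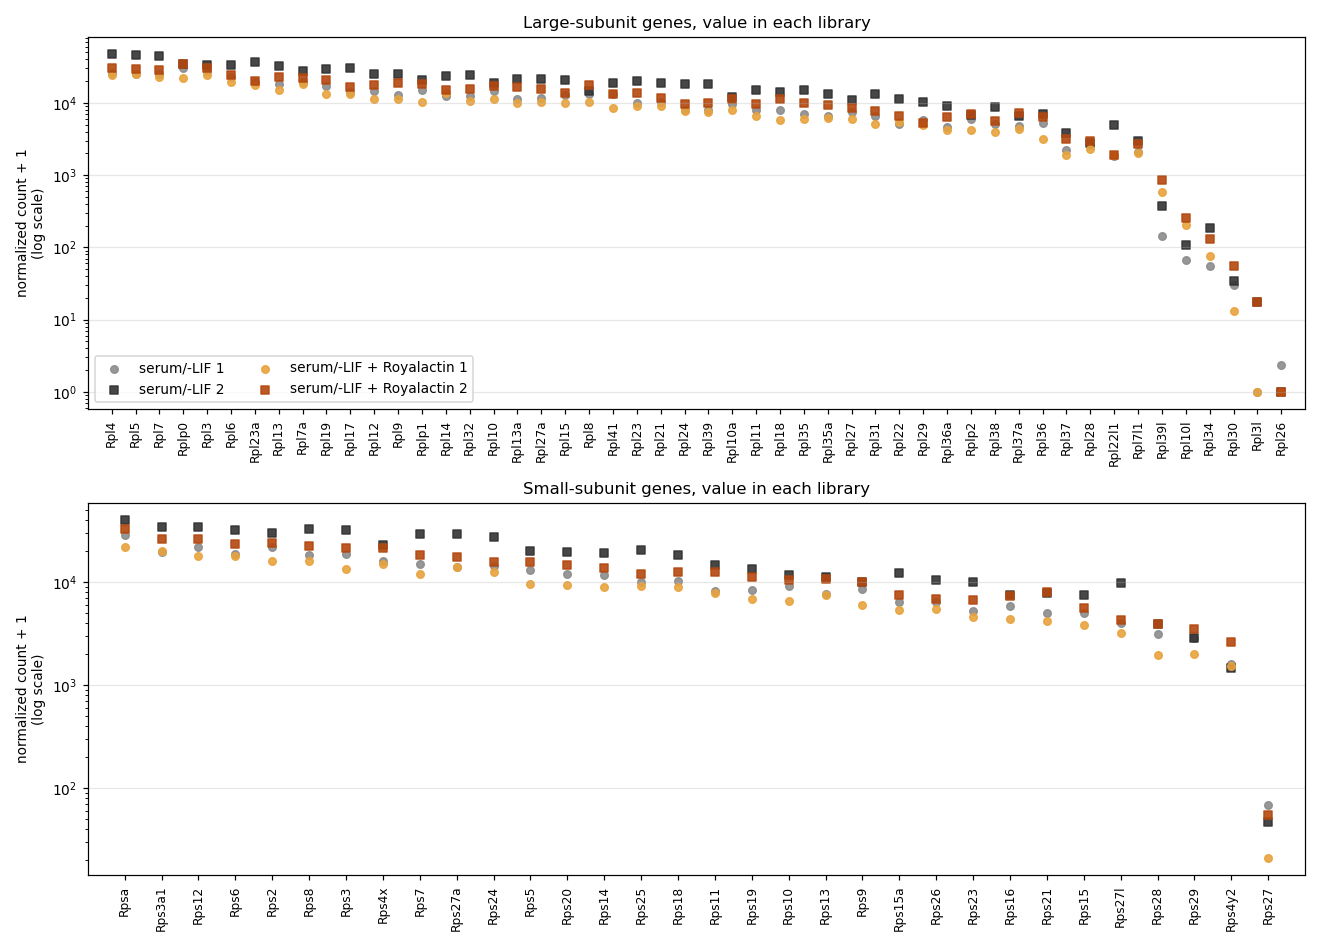
Normalized count + 1 (log axis) of 50 large-subunit and 32 small-subunit genes in the 4 libraries, ordered by mean. Serum/-LIF replicate 2 (dark squares) is on top for 70 and Royalactin replicate 1 (light circles) at the bottom for 74 of all 82 tested members, 80 of which are drawn, whereas both Royalactin libraries lie above both serum/-LIF libraries for Rpl39l and Rpl10l.

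When each library was centred on its own median member, most of the spread between libraries was gone. The SD of a member's log2 value over the 4 libraries was 0.47 at the median before centring, no larger than the 0.47 of all tested genes. After centring on the members' own median it was 0.14, and 64 of 82 members then differed by less than 0.25 (log2) between the group means. After this centring, chosen after the data were seen, groups did not overlap for 22 of 82 members, against 32.9% of all tested genes on the same scale. In 20 of these 22 the level relative to the median member was higher with Royalactin. The centring itself moved the median log2 fold changes of both subunits above 0, so this direction is not a result about these members. The largest differences between the groups relative to the median member were those of Rpl39l (2.08 on the log2 scale), Rpl10l (1.87) and Rps4y2 (0.84), then Rpl37a (0.43), although all 4 genes lay below the median member in every library. For Rps27l the difference was -0.30 and for Rpl31 -0.13. When all genes were scaled in this way the median log2 fold change of all tested genes was 0.44, and those of the subunits were 0.10 and 0.09.

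Base composition went with the replicate differences in opposite directions in the groups, and exon length was compared as well. Across the 81 tested members with an annotated gene, Spearman's rho between GC content and the log2 difference was -0.40 for serum/-LIF replicate 2 over replicate 1 and 0.29 for Royalactin replicate 2 over replicate 1, and across all 12667 annotated tested genes it was -0.33 and 0.18. For Royalactin over serum/-LIF it was 0.11 among members and 0.09 among all genes. For exon length, rho of the replicate differences was 0.05 and -0.01 among members and -0.23 and -0.30 among all genes. For Royalactin over serum/-LIF the rho with length was 0.06 among members and 0.08 among all genes. These genes share libraries and are not independent replicates, and the part of GC content and length in the member values was not tested. With values corrected for GC content and length, the medians of the large and small subunit were -0.26 and -0.27.

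The 3 most abundant members of each subunit per kb of exon were taken among the 83 with an annotated gene, which leaves out Rpl41. In the small subunit they were Rps12, with a mean of 48762 normalized counts per kb, Rps3a1 (25860) and Rps24 (19653), and in the large subunit Rplp1 (32730), Rpl32 (30444) and Rpl23a (27969). Rps12 counted 22135 and 34341 in serum/-LIF and 17893 and 26470 with Royalactin, so that the groups overlapped (log2 fold change -0.34, SE 0.41, limma adjusted p = 0.848). Rpl23a counted 19480 and 37320 against 17887 and 20073, with a log2 fold change of -0.51 (SE 0.41). For Rps24 the log2 fold change was likewise -0.51 (SE 0.39), for Rpl32 -0.43 (SE 0.39) and for Rps3a1 -0.19 (SE 0.41), and none of these passed the test. Several of these genes hold small nucleolar RNA genes within their bounds, Rps12 and Rpl23a 3 each.

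The stalk proteins, which recruit and stimulate the translation factors at the large subunit, did not pass the test. Rplp0, the base of the stalk, counted 30874 and 34083 in serum/-LIF and 22144 and 34395 with Royalactin (log2 fold change -0.23, SE 0.41). Rplp1 and Rplp2, the acidic proteins that bind to it, had log2 fold changes of -0.37 (SE 0.38) and -0.21 (SE 0.33). In Rplp2 the values were 5993 and 6729 against 4243 and 7114, and Royalactin replicate 2 was the highest library. Rpsa, a small-subunit protein also known as the laminin receptor, counted 28716 and 40221 against 21838 and 32891 (-0.34, SE 0.42). The limma adjusted p of these 4 genes ranged from 0.827 (Rplp1) to 0.902 (Rplp0).

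The members with the lowest fold changes did not pass the test either. Rps27 had the lowest log2 fold change, -0.76 (SE 0.81), on values of only 68.2 and 46.6 in serum/-LIF against 20.1 and 53.7 with Royalactin. Rps27l counted 4009 and 9823 against 3215 and 4341 (-0.75, SE 0.39) and Rpl22l1 1828 and 4965 against 1873 and 1873 (-0.69, SE 0.40). In both of these paralogs serum/-LIF replicate 2 alone stood high. Rpl29, a protein of the large subunit, had every Royalactin value below every serum/-LIF value. It counted 5748 and 10463 in serum/-LIF and 4983 and 5334 with Royalactin (-0.59, SE 0.34). The limma adjusted p of these 4 genes lay between 0.605 and 0.829.

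Rpl39l carried the largest difference of all members. It counted 142 and 367 in serum/-LIF and 587 and 849 with Royalactin (means 255 ± 160 and 718 ± 185, SD, n = 2), from 106, 355, 584 and 1234 reads. Both Royalactin libraries lay above both serum/-LIF libraries, as they did for 19.7% of all tested genes. The log2 fold change was 1.62 (SE 0.45), which missed the threshold (limma adjusted p = 0.182). With a replicate block the adjusted p in limma was 0.00105, in a fit that called 3.01% of all tested genes, and with the correction for GC content and length it was 0.00201, where 2.18% were called. With both together 4 members were called, of which Rpl39l and Rpl10l were higher and Rps3 and Rps15a lower, beside 6.29% of all tested genes. The block pairs libraries by replicate number, although the labels do not tie same-numbered libraries to each other. Rpl39, its parent and part of the wall of the exit tunnel for the growing peptide, counted 7925 and 18188 against 7499 and 9989, so that the groups overlapped (log2 fold change -0.47, SE 0.40, limma adjusted p = 0.773).

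The ratio of Rpl39l to Rpl39 was steadier than either gene. Rpl39l was 1.79% and 2.02% of Rpl39 in serum/-LIF and 7.83% and 8.50% with Royalactin. On the log2 scale the ratio was -5.71 ± 0.12 and -3.61 ± 0.08 (SD, n = 2), a difference of 2.10 that corresponds to a 4.28-fold higher ratio and is larger than the SD within either group. The exact permutation test gave p = 0.333, the smallest possible with 2 against 2 libraries. Leaving out any one library kept the difference between 2.01 and 2.18. Every stretch of 75 bases of the Rpl39l mRNA was unique in mm9 at up to 2 mismatches, and none of those of Rpl39 matched Rpl39l, so that reads of the length sequenced here can be told apart between the pair. Of the stretches of Rpl39 itself, 53.9% also matched other places, so the percentages of Rpl39 rest on an uncertain count of the parent.

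Rpl10l showed the same pattern at a lower level. It counted 66.9 and 108 in serum/-LIF and 203 and 257 with Royalactin (log2 fold change 1.42, SE 0.50, limma adjusted p = 0.349), from 50, 104, 202 and 374 reads, and the groups did not overlap. Rpl10, whose protein joins the large subunit late in its assembly, counted 14711 and 19024 against 11256 and 16942 (-0.28, SE 0.36). The ratio of Rpl10l to Rpl10 was 0.455% and 0.566% in serum/-LIF and 1.81% and 1.52% with Royalactin, 3.24-fold higher on average (log2 difference 1.70, exact permutation test p = 0.333). Of the 75-base stretches of the Rpl10l mRNA, 73.5% also matched a single other place, the pseudogene Gm14460 at chr2:78352587-78353520 of mm9, so that reads of these 2 loci are uncertain. No stretch of Rpl10l matched Rpl10, but 94.3% of those of Rpl10 matched other places, which leaves the count of the parent uncertain too.

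The other paralogs differed less from their parents. Rps4y2, listed by RefSeq as the transcribed pseudogene Rps4l and by GENCODE vM1 as protein-coding, lies at chr6:148303178-148304120 inside Tmtc1 on the opposite strand. It counted 1617 and 1476 in serum/-LIF and 1558 and 2615 with Royalactin (log2 fold change 0.39, SE 0.32, limma adjusted p = 0.769), and Royalactin replicate 2 alone was high. Its log2 ratio to Rps4x was -3.65 ± 0.45 and -3.15 ± 0.16, a difference of 0.50, without overlap. Rps4x itself counted 16274 and 23160 against 15006 and 21436. Whether the counting used strand is not given in the sources used here, so reads of Tmtc1 in this region cannot be set aside.

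Rpl7l1, a nucleolar relative of Rpl7, counted 2093 and 2989 against 2000 and 2722, and its log2 ratio to Rpl7 was 0.31 higher with Royalactin (-3.76 ± 0.23 and -3.45 ± 0.10). Rpl22l1 went the other way relative to Rpl22, with a log2 ratio of -1.34 ± 0.21 and -1.67 ± 0.21, a difference of -0.34. Neither pair overlapped between groups, and both gave the smallest possible exact permutation p of 0.333. Rpl22 counted 5121 and 11296 against 5370 and 6630, and Rpl7 25381 and 45263 against 22984 and 28374.

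**Figure D4:**
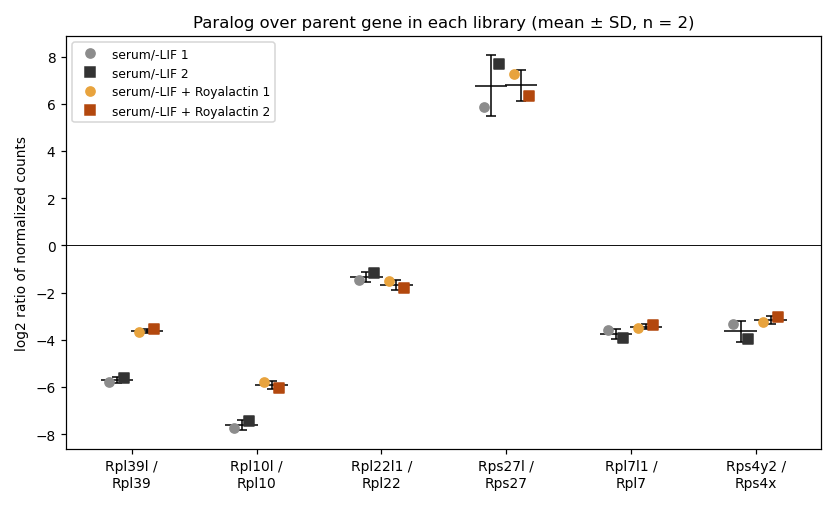
Log2 ratio of the normalized count of a paralog to that of its parent gene in each library, with group means ± SD (n = 2). Rpl39l over Rpl39 and Rpl10l over Rpl10 are 2.10 and 1.70 higher in the Royalactin libraries, while the remaining pairs differ by 0.50 or less.

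Near-identical copies in the genome were counted for each member, since reads that match several places may be lost or split. Over the 83 members found in the annotation, the median share of 75-base stretches with another match in mm9 was 73.5%, since processed copies of these mRNAs are scattered over the chromosomes. All stretches of Rpl26 and Rps27 had another match. Rpl26 held 1 read in serum/-LIF replicate 1 and 0 in the other 3 libraries, where a count of 0 allows up to 3 reads, and was not tested. Rps27 held 20 to 78 reads, whereas Rps27l, with 22.6% of its stretches matched elsewhere, was 58.8 to 211 times as high as Rps27. The part of the copies in the ratio of this pair was not tested. How multiply aligned reads were counted is not given in the sources used here.

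Rpl34 (54.8 and 186 against 75.4 and 131) and Rpl30 (29.4 and 33.1 against 12.1 and 55.1) were also low, and their values overlapped between groups. Rpl37a, with 4828 and 6613 against 4297 and 7228, had the log2 fold change nearest to 0 (-0.02, SE 0.34). Rpl3l, the paralog of Rpl3 known from muscle, held 16 and 24 reads in the second replicates and 0 in the first ones, and was not tested. Rpl3, which lies near the peptidyl transferase centre, counted 27501 and 33125 in serum/-LIF and 24209 and 30668 with Royalactin. The median log2 fold change was -0.36 in the 22 tested members with under 50% of stretches matched elsewhere (20 lower) and -0.35 in the 59 others (58 lower).

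Genes that work beside the ribosomal proteins were grouped in 6 lists by function. In limma 0 of their 159 tested genes had an adjusted p under 0.05, against 0.493% of all tested genes. An unadjusted p under 0.05 was found for 4 of them (Ubtf, Rrn3, Pwp2 and Urb2), against 9.34% of all tested genes. Of 19 translation factors and other genes whose mRNAs are known for a TOP tract, 12 were lower and 7 higher, with a median log2 fold change of -0.13. Eif3m, a subunit of initiation factor eIF3, was lowest (-0.66, SE 0.36, limma adjusted p = 0.616) and Eif3l, another subunit, highest (0.38, SE 0.30, limma adjusted p = 0.745). Eef1a1, the elongation factor that delivers tRNAs and the most abundant of the list, counted 120549 and 143369 against 123099 and 146237. Fau, which encodes a ribosomal protein outside the symbol rule, had a log2 fold change of -0.21 (SE 0.35). Of the related symbols outside the rule, 5 of 6 tested were lower (median -0.23), from Rsl1d1 (-0.44) to Rsl24d1 (0.01).

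The machinery that makes ribosomes was centred near 0. Of 77 ribosome assembly genes, 41 were higher and 36 lower (median 0.03), between Mphosph10 (-0.71, SE 0.38) and Pwp2 (0.90, SE 0.40). Among 14 genes for RNA polymerase I and its factors the median was 0.08, with Ubtf, the upstream binding factor of the rRNA genes, at 0.81 (SE 0.30, limma adjusted p = 0.378) and the subunit gene Polr1e at -0.65 (SE 0.36). For Ubtf both Royalactin values (2953 and 3350) lay above both serum/-LIF values (2089 and 1535), as they did for 19.7% of all tested genes. Groups did not overlap, in either direction, for 4 of these 14 genes, against 38.6% of all tested genes. Of 33 other initiation and elongation factors, 20 were lower (median -0.04), from Eif4g3 (-0.80, SE 0.40) to Eif2b1 (0.50, SE 0.31). The 11 host genes of small nucleolar RNAs had a median of -0.05, between Snhg6 (-0.62, SE 0.38) and Snhg3 (0.33, SE 0.35).

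**Figure D5:**
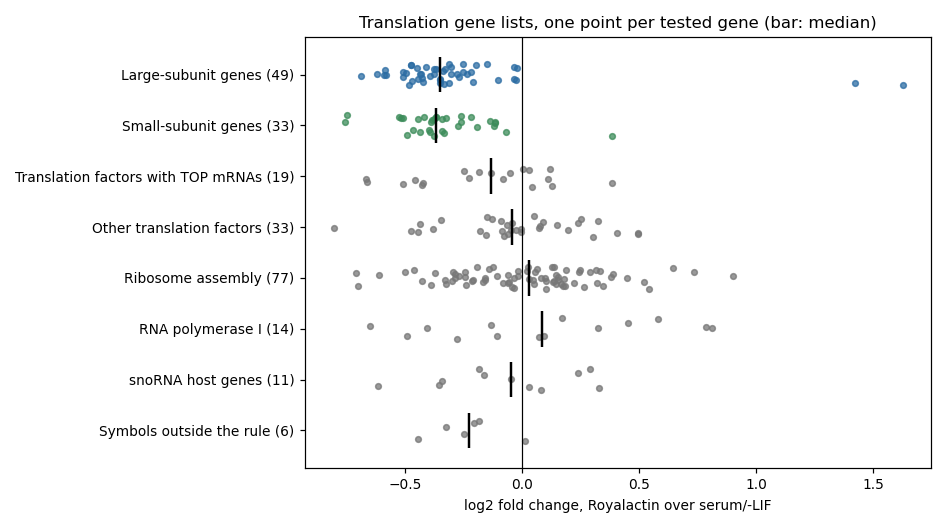
Log2 fold change (horizontal axis) of each tested gene of the 2 subunits and of 6 lists of the translation machinery, with the median of each list as a bar and the number of genes in brackets. The subunits have medians of -0.35 and -0.37, while the medians of the lists range from -0.23 to 0.08.

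Rows of ribosomal protein pseudogenes were few. Of 6 such rows 3 were tested: Rps15a-ps4 counted 603 and 985 in serum/-LIF and 252 and 535 with Royalactin (log2 fold change -1.07, SE 0.41, limma adjusted p = 0.404), Rps15a-ps6 had -0.68 (SE 0.37) and Rps19-ps3 had 0.10 (SE 0.57). Rps15a-ps4 and Rps15a-ps6 both had every Royalactin value below every serum/-LIF value. Groups did not overlap, in either direction, for 38.6% of all tested genes. The values of the parent gene Rps15a overlapped between groups. Of the searched stretches of the Rps15a mRNA, 64.0% also matched other places, which leaves the count of the parent uncertain. Whether these places include the pseudogenes was not tested.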

How the data were processed

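Reads of ribosomal RNA-depleted libraries were mapped by the authors to the mm9 genome with TopHat. The authors then obtained the counts of each gene with HTSeq-count and scaled them by DESeq size factors. The deposited values are this signal, normalized counts per gene and library. The gene annotation and strand setting are not given in the sources used here. Every value was a whole multiple of a step per library to within 0.01 read, which gives the read numbers. In one Royalactin library the step was 1.01, too near 1 for this to be checked automatically, so no count test was run. ATAC-seq was not analysed here.

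Log2(normalized count + 1) of genes with a mean of at least 10 was tested with limma 3.58.1 in R 4.3.3 (variance trend, two-sided, Benjamini-Hochberg adjustment over all tested genes). Fold changes on this scale understate those of low genes. The fit was also run on simulated data with independent noise for each gene. Only the slope of the fold changes and the sign of called genes were checked there, not the p-values. Shares and ratios were compared by exact permutation tests. The members and lists were chosen with earlier results of these data known. Members named are the 5 largest rises and falls, paralogs with parents, stalk proteins with Rpsa, the 3 most abundant per subunit and kb of exon, those not tested, and in each list the extremes, and others only as examples chosen after their values were seen. A few genes that the rule would name are not reported here. Of blood, endoderm, mesoderm, fibroblast or mesenchyme and neural markers, 1, 2, 3, 6 and 6 were tested, with median log2 fold changes of 0.66, 1.41, -0.41, -0.85 and 0.42. The stem cell list had 1.02.

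Positions, exon lengths and GC content are from GENCODE vM1 on mm9 (83 of 84 members and 97.5% of tested genes matched). Every 75-base stretch of one mRNA per member was searched in mm9 at up to 2 mismatches. The correction for GC content and length subtracted a lowess curve (span 0.3). Alternatives were pseudocounts of 0.1 and 5, other filters and scalings, a replicate block, no variance trend and each library left out. Precision is limited by 2 libraries per group, and read floors cover counting error only, since copies by PCR are not separate molecules.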

Additional observations from a re-analysis of the deposited data

How the results depend on the processing

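The number of members called stayed at 0 under other pseudocounts, filters and scalings, without the variance trend and with each library left out. It was 1 (Rpl39l) with the replicate block and 1 (Rpl39l) with the correction for GC content and length, and 4 with both (Rpl39l, Rpl10l, Rps3 and Rps15a, where 6.29% of all tested genes were called). The labels do not tie same-numbered libraries to each other. Their deviations from the group means had a Pearson correlation across genes of 0.09 for all tested genes and -0.46 for the tested members. This correlation leaves out the shift that members shared. Replicate 2 exceeded replicate 1 for 79 of 82 members in serum/-LIF and for 82 of 82 with Royalactin. In this balanced design the replicate block leaves every log2 fold change as it is. Calls over all tested genes were 64, but 32 with a pseudocount of 0.1, 34 without the filter, 99 with a mean of at least 50, 391 with the replicate block, 276 with the correction for GC content and length, 797 with both, and 0 without the trend or with any library left out, where 428 to 2496 had an unadjusted limma p under 0.05. Over the alternatives the limma adjusted p of Rpl39l ranged from 9.3e-09 to 1.00 and that of Rpl10l from 0.015 to 1.00.

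The direction of some members changed. Scaling to the median member, chosen after seeing the data, moves every gene up by nearly the same amount, so that the median of all genes was 0.44 and members a little below 0 must change sign. Log2 fold changes were then 0.43 for Rpl34, 0.43 for Rpl37a, 0.18 for Rpl10, 0.10 for Rpl22, 0.35 for Rpl7l1, 0.044 for Rpl7, 0.30 for Rpl3, 0.34 for Rps4x, 0.22 for Rplp0, 0.086 for Rplp1, 0.24 for Rplp2, 0.11 for Rpsa, 0.019 for Rpl32, 0.11 for Rps12 and 0.26 for Rps3a1. The subunit medians were then 0.10 and 0.09. Scaled to the total without Rn45s they were 0.032 for Rpl34 and 0.036 for Rpl37a. With the correction for GC content and length, with or without the block, they were 0.11 for Rpl34, 0.25 for Rpl37a and 0.051 for Rps4x. The log2 ratio of Rps27l to Rps27 differed by -0.069 at a pseudocount of 5. The cause of these other changes was not tested. With each library left out in turn, values ranged from -0.91 to 0.92 for the ratio of Rps27l to Rps27, -1.79 to 2.08 for Rpl3l to Rpl3, -1.41 to 0.035 for Rpl22l1, -0.90 to 0.85 for Rpl34, -0.39 to 0.36 for Rpl37a, -1.07 to 0.13 for Rpl39, -0.57 to 0.018 for Rpl10, -0.92 to 0.22 for Rpl22, -0.36 to 0.16 for Rpl7l1, -0.83 to 0.0088 for Rpl7, -0.32 to 0.023 for Rpl3, -0.37 to 0.14 for Rps4x, -0.55 to 0.084 for Rplp0, -0.78 to 0.048 for Rplp1, -0.58 to 0.16 for Rplp2, -0.91 to 0.040 for Rpl32 and -0.60 to 0.21 for Rps3a1. With a library left out, the lone library of its group is assumed to vary like the other group.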
